A study of Mus musculus with 220 samples.

Results

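Transcripts of 9 protease inhibitor genes were followed across single endothelial cells of mouse lymph nodes. They were the 5 mouse Serpina1 paralogues (Serpina1a, Serpina1b, Serpina1c, Serpina1d and Serpina1e), the intracellular serpins Serpinb1a, Serpinb6a and Serpinb9, and Spint2. They make up 9 of the 24049 gene symbols in the deposited table and were taken by name. The members were chosen on measured values, their levels in these same cells. In particular the difference between high endothelial cells and blood endothelial cells was used. All differences between groups, and their ranks among all genes, are therefore given here as a description only. All 9 symbols were found in the table, and their values are FPKM, a level corrected for transcript length (per kilobase) and for the mapped fragments of the cell.

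All cells came from lymph nodes of C57BL/6 mice, were sorted by flow cytometry, and were made into libraries one by one on the Fluidigm C1 microfluidic system. The 65 inflamed high endothelial cells (HEC) were taken on day 3 after 4% oxazolone, a contact sensitiser, was put on the skin. The 44 dedifferentiated HEC were taken on day 7 after LTBR-Ig, a soluble lymphotoxin β receptor fusion that blocks the signal on which these cells depend, had been given as a single intraperitoneal injection. The 79 homeostatic HEC and the 32 homeostatic blood endothelial cells (BEC) came from untreated mice. The labels name no animal, chip, age or sex, so each group counts as 1 sample of cells. The treatment cannot be told apart from the capture or the harvest day, no test between groups was possible, and the SDs below are over cells. The inflamed cells 43 and 60 were near copies of each other (Pearson r 0.988 over all genes, against 0.701 for the next closest pair) and were averaged, which leaves 64 inflamed HEC and 219 cells.

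All 7 HEC markers in the list had a higher mean in homeostatic HEC than in BEC, by 4.25 to 8.91 on the log2(FPKM + 1) scale. Of these Chst4, a sulfotransferase of HEC, averaged 7.29 in inflamed, 6.21 in dedifferentiated and 6.98 in homeostatic HEC, and 0.59 in BEC, while the endothelial gene Pecam1 averaged 9.21, 10.10, 9.29 and 8.62 in the same order. The markers did not all move alike: the endothelial genes Kdr (−2.77), Flt1 (−3.22) and Tie1 (−1.32) were lower in homeostatic HEC than in BEC, and the HEC genes Glycam1 (−2.62), Gcnt1 (−2.25), Fut7 (−1.58) and Enpp2 (−1.22) were lower in inflamed than in homeostatic HEC. In dedifferentiated minus homeostatic HEC, Gcnt1 (−3.84), Glycam1 (−2.42), Fut7 (−2.29) and Ubd (−1.08) were lower. Chst4 (−0.77), Enpp2 (−0.53) and Ackr1 (0.18) stayed within 1 there. The number of genes at an FPKM of 1 or more had medians of 3961 in inflamed, 3075 in dedifferentiated and 3842 in homeostatic HEC, and 2870.5 in BEC, so the groups also differed in detection. Glycam1, a sialomucin gene of HEC, was present in every BEC at 32.8 to 594.2 FPKM, a low level whose source was not tested. At least 3 of 7 HEC markers were at 10 FPKM or more in 15 of 32 BEC. At least 3 markers of another cell type, mostly B lymphocyte and leukocyte genes, were at 10 FPKM or more in 3 inflamed, 3 dedifferentiated and 7 homeostatic HEC and in 1 BEC, and these cells were kept.

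Serpins are suicide inhibitors: the target protease cuts an exposed loop near the C-terminal end of the serpin, the serpin snaps into a new shape, and the protease stays trapped. The Serpina1 genes encode α1-antitrypsin, a secreted plasma protein known mainly from the liver, whose best known target is the elastase of neutrophils. Humans have a single such gene and laboratory mice several copies that differ mainly around the reactive loop. The clade B serpins lack a classical secretion signal and act inside cells: Serpinb1a inhibits neutrophil elastase, cathepsin G and proteinase 3, Serpinb6a inhibits cathepsin G and related proteases, and Serpinb9 inhibits granzyme B, the death-inducing protease of cytotoxic lymphocytes. Spint2 is unrelated to serpins. It is a membrane-anchored Kunitz inhibitor, also called HAI-2, of the hepatocyte growth factor activator and of cell surface serine proteases such as matriptase and prostasin.

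The 5 Serpina1 genes lie side by side on the minus strand of chromosome 12 (GRCm38, GENCODE annotation), from Serpina1b at chr12:103728156-103830373 through Serpina1d at chr12:103763594-103773592, Serpina1a at chr12:103853589-103863562 and Serpina1c at chr12:103894926-103904887 to Serpina1e at chr12:103946931-103958975. Serpina1b as annotated spans Serpina1d on the same strand, which adds to the uncertainty of fragments from that stretch. Serpinb1a is at chr13:32842092-32851185, Serpinb9 at chr13:33003250-33017957 and Serpinb6a at chr13:33917918-34002794. Spint2 is at chr7:29256323-29281912.

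The paralogues share so much sequence that a fragment can often not be assigned to a single one of them. Over 1239 aligned coding bases, pairs of paralogues differed at 19 to 46 bases. The window that tells them apart best is the 60 bases ending 79 bases before the end of the coding sequence, where 18 positions differ among the 5 genes, against a median of 4 over all such windows. It is shown because the paralogue-specific values below depend on fragments that cover such stretches. It lies toward the C-terminal end, where the reactive loop of a serpin is known to be, but no protein sequence was used and the loop was not located. All 5 are coding sequence of GRCm38 on the minus strand, written 5′ to 3′, and capitals mark positions at which the 5 genes are not identical.
Serpina1e (chr12:103947100-103947159): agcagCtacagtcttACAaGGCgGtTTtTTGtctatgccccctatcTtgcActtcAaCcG
Serpina1b (chr12:103728324-103728383): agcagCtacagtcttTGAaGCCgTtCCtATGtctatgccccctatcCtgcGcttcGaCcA
Serpina1a (chr12:103853757-103853816): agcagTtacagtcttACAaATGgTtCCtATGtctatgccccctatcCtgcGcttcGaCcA
Serpina1d (chr12:103763762-103763821): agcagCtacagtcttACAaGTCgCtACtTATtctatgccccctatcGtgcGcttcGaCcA
Serpina1c (chr12:103895094-103895153): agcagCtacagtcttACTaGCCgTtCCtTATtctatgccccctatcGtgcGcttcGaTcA
In this window Serpina1b, the second most abundant paralogue in HEC, differs from Serpina1e at 11 of 60 bases, so the 2 abundant paralogues are separable here. Serpina1a and Serpina1c each differ from Serpina1e at 12 bases and Serpina1d at 10.

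Away from such windows the separation is weaker. Of all stretches of 50 bases in the annotated transcript, 64.4% in Serpina1e and 64.2% in Serpina1b occur in no other gene, against 49.1% in Serpina1d, 32.6% in Serpina1a and 20.7% in Serpina1c. With stretches of 100 bases the shares were 85.2%, 79.4%, 70.7%, 50.1% and 30.7% in the same order of genes. Serpinb9 and Spint2 are almost free of shared stretches of 50 bases, with 99.6% and 100% found in no other gene, and Serpinb1a and Serpinb6a follow with 96.6% and 86.9%. The read length is not given in the sources used here. Values of single Serpina1 paralogues, above all of Serpina1a and Serpina1c, are therefore uncertain, and the sum of the 5, called the Serpina1 sum, is given beside them. Part of the shared sequence also occurs in the annotated genes Gm8893 and B430119L08Rik, which have no row under these names in the table.

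**Figure D1:**
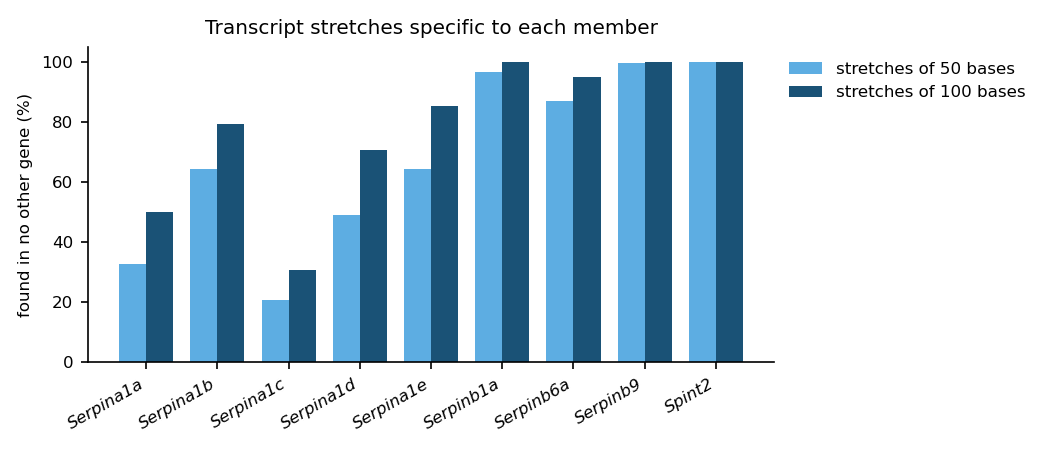
Share of all stretches of 50 bases (light bars) and of 100 bases (dark bars) of each annotated transcript that occur in no other gene, in percent. The Serpina1 paralogues lie between 20.7% and 64.4% at 50 bases, and Spint2 is at 100% at both lengths.

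Part of the promoter is alike too. The stretch below aligns without gaps between the 5 genes and ends before the start of each of them in the RefSeq promoter table (GRCm38.p6, minus strand), in which 8 of the 9 members were found. In the GENCODE annotation above, Serpina1b and Serpina1e start further upstream, so for them the stretch lies inside the gene. The stretch is shown because many inflamed and homeostatic HEC had both Serpina1b and Serpina1e at 10 FPKM or more, while the 3 other paralogues were low in most cells. The 5 genes differ at 10 of its 119 positions (capitals). It was picked for likeness: it was built around bases identical in all 5 and extended upstream until Serpina1b and Serpina1e diverged. The few differences therefore follow from the choice and say nothing about the rest of the promoters.
Serpina1e (chr12:103956960-103957078): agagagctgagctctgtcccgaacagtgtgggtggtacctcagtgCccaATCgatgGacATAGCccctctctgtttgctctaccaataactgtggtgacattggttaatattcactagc
Serpina1b (chr12:103738200-103738318): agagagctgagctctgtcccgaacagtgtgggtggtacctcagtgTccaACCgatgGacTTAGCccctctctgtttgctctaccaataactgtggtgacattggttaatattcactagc
Serpina1a (chr12:103863625-103863743): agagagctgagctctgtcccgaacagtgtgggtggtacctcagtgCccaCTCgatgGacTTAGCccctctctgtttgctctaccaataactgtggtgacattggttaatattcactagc
Serpina1d (chr12:103773634-103773752): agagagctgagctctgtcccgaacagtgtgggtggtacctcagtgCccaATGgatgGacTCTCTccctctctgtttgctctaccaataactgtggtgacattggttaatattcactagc
Serpina1c (chr12:103904962-103905080): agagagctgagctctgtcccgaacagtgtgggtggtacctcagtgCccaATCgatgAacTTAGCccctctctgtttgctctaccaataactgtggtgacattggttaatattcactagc
Serpina1e differs from Serpina1a and from Serpina1c at 2 of these bases, from Serpina1b at 3 and from Serpina1d at 6, so closeness in this stretch does not follow the levels. The letters GTTAAT, read on either strand, which form part of the binding motif of the liver factor HNF1, occur in the 300-base promoter of all 5 paralogues and in 7.10% of the 32851 promoters in the table. This is a match of letters and not a measured site. In the stretch shown these letters lie in bases that all 5 genes share, so the 5 matches are not separate observations. Setting them beside the share of all promoters therefore does not measure enrichment.

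Serpina1e was the most abundant paralogue in HEC. Its FPKM had a median of 279.5 in inflamed HEC (lowest 0.37, highest 3870), 101.7 in dedifferentiated HEC (0 to 2960) and 1139.8 in homeostatic HEC (0 to 5816), against 0.94 in BEC (0 to 5.55). It reached 10 FPKM in 47 of 64 inflamed, 28 of 44 dedifferentiated and 64 of 79 homeostatic HEC and in no BEC. The groups still overlapped: 50 of 64 inflamed, 28 of 44 dedifferentiated and 67 of 79 homeostatic HEC were above the highest BEC, and the other HEC were within the BEC range.

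Serpina1b had medians of 233.1 FPKM in inflamed (0 to 1970), 4.28 in dedifferentiated (0 to 2047) and 359.6 in homeostatic HEC (0 to 3489), against 0.75 in BEC (0 to 1163). It was at 10 FPKM or more in 65.6% of inflamed HEC (exact Clopper-Pearson 95% interval 52.7 to 77.1), 45.5% of dedifferentiated HEC (30.4 to 61.2) and 70.9% of homeostatic HEC (59.6 to 80.6), and in 15.6% of BEC (5.28 to 32.8). Unlike Serpina1e it was high in a few BEC. The groups overlapped up to the highest BEC, above which lay 6 inflamed, 2 dedifferentiated and 16 homeostatic HEC.

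The other 3 paralogues were low in most cells of every group. Serpina1a had medians of 1.81 FPKM in inflamed, 0.885 in dedifferentiated and 1.29 in homeostatic HEC and 1.18 in BEC, about the same in all 4 groups, and only 4, 0, 2 and 2 cells in that order reached 10 FPKM. Serpina1d was listed at 0 in 46 of 64 inflamed, 43 of 44 dedifferentiated and 59 of 79 homeostatic HEC and in every BEC, but reached 746.1 FPKM in an inflamed and 260.4 FPKM in a homeostatic HEC. Serpina1c was listed at 0 in 59 inflamed, 41 dedifferentiated and 68 homeostatic HEC and in every BEC, with a highest value of 110.3 FPKM in an inflamed HEC. The limit that 0 of 32 cells allows is a share of up to 10.9% (exact interval).

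Added up, the Serpina1 sum had medians of 670.1 FPKM in inflamed, 353.8 in dedifferentiated and 1782 in homeostatic HEC, against 3.47 in BEC. It was close to all or none from cell to cell: 48 of 64 inflamed, 26 of 44 dedifferentiated and 62 of 79 homeostatic HEC had 100 FPKM or more, 11, 11 and 10 had less than 10, and only 5, 7 and 7 fell between. Among the cells at 10 FPKM or more the median was 982.9 in 53 inflamed, 697.1 in 33 dedifferentiated and 1931 in 69 homeostatic HEC. The dedifferentiated group was therefore lower both in the share of cells (75%, interval 59.7 to 86.8, against 87.3%, 77.95 to 93.8, in homeostatic HEC) and in the level of those cells. The 2 share intervals overlapped.

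**Figure D2:**
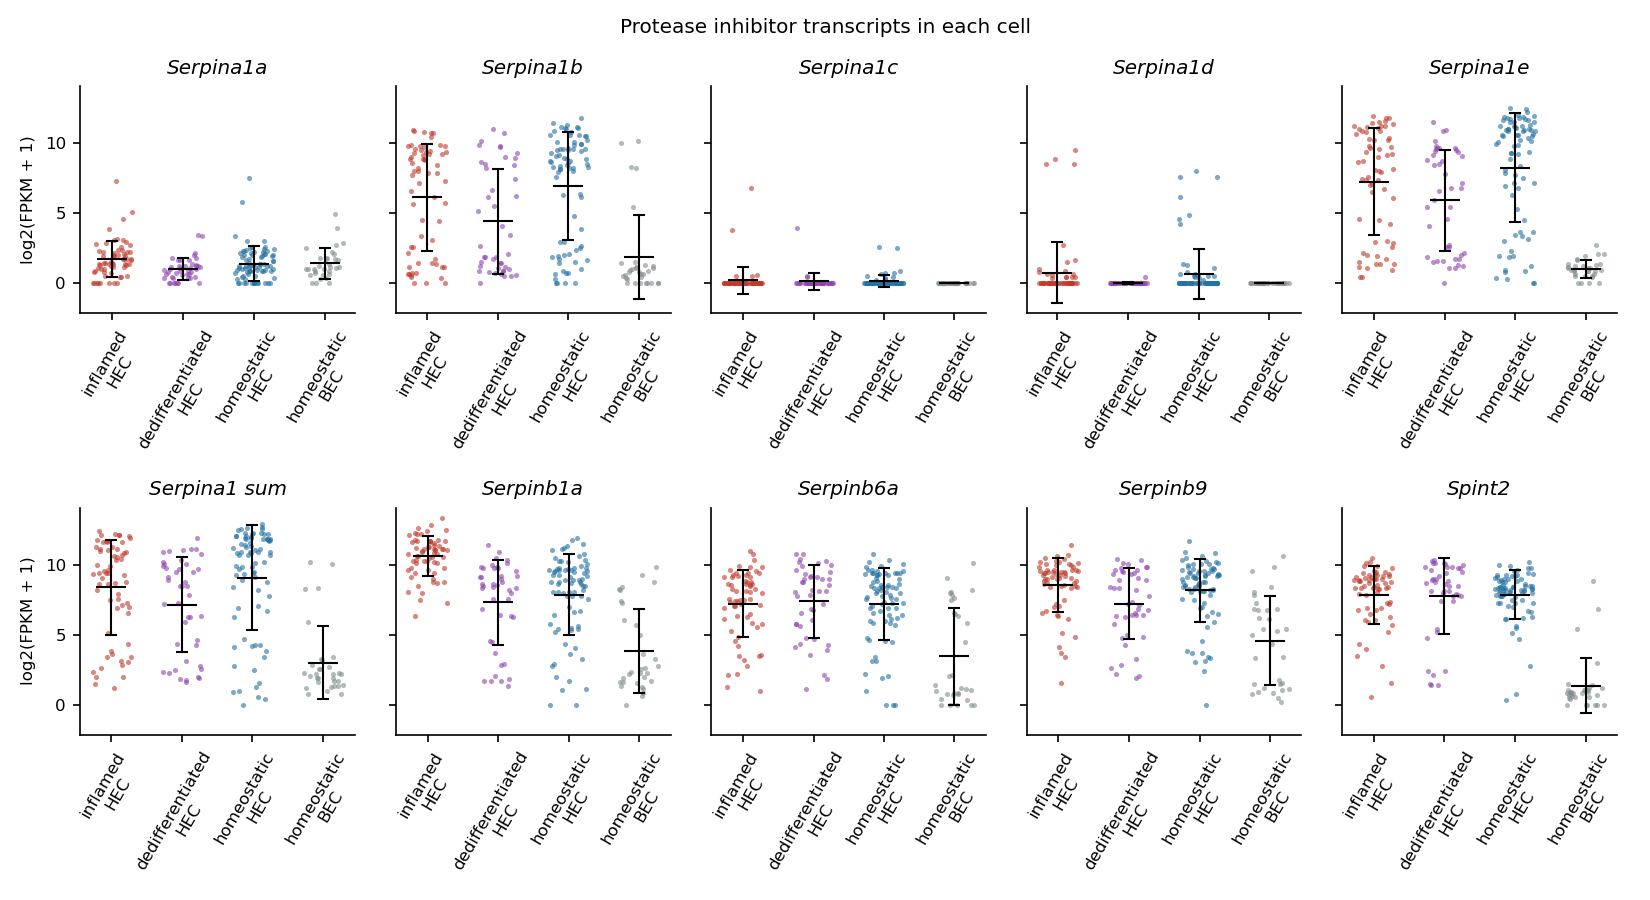
Level of each gene and of the Serpina1 sum in every cell, as log2(FPKM + 1), in 64 inflamed, 44 dedifferentiated and 79 homeostatic HEC and 32 BEC, with the mean (horizontal bar) and the SD over cells (error bar). Serpinb1a in inflamed HEC has no cell below 78.9 FPKM, Serpina1e stays at or below 5.55 FPKM in all BEC, and Spint2 has 3 BEC at 10 FPKM or more.

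Serpina1e and Serpina1b were found together in most inflamed and homeostatic HEC but not in most dedifferentiated HEC. Both were at 10 FPKM or more in 38 of 64 inflamed, 16 of 44 dedifferentiated and 52 of 79 homeostatic HEC. Serpina1e was there without Serpina1b in 9, 12 and 12 cells, Serpina1b without Serpina1e in 4, 4 and 4, and neither in 13, 12 and 11. Taken singly, each gene was also at that level in a smaller share of dedifferentiated HEC. Serpina1e reached it in 47 inflamed, 28 dedifferentiated and 64 homeostatic HEC, and Serpina1b in 42, 20 and 56. The joint counts were not set against those that the separate counts would give. No loss of joint detection in dedifferentiated HEC is therefore read from these counts. Over the cells of a group the Spearman rho of the 2 genes was 0.65 in inflamed, 0.40 in dedifferentiated and 0.73 in homeostatic HEC. These correlations describe cells that share a library preparation, and shared fragments can add to them.

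**Figure D3:**
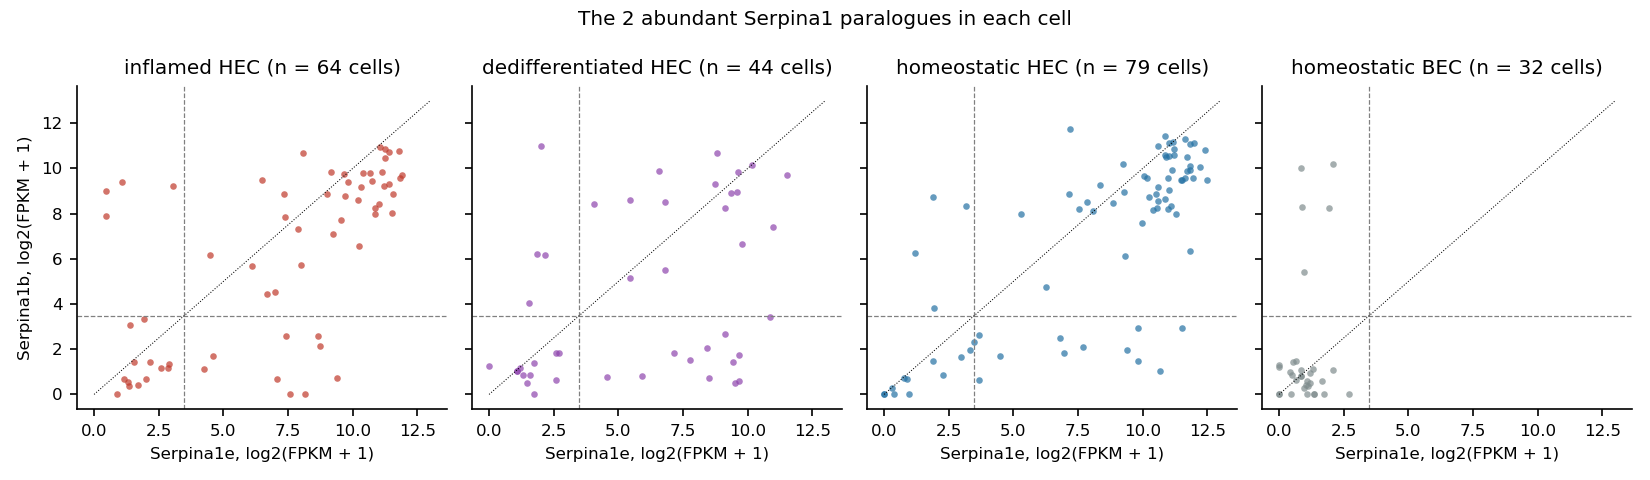
Serpina1b against Serpina1e in each cell, both as log2(FPKM + 1), for inflamed, dedifferentiated and homeostatic HEC and BEC; dashed lines mark 10 FPKM and the dotted line equal levels. Both genes are past 10 FPKM in 38 inflamed, 16 dedifferentiated and 52 homeostatic HEC and in 0 BEC, where 5 cells have Serpina1b alone.

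In cells with a Serpina1 sum of 10 FPKM or more, Serpina1e took a median share of 66.9% in 53 inflamed, 64.8% in 33 dedifferentiated and 72.4% in 69 homeostatic HEC. Serpina1b took 28.2%, 28.7% and 25.2% in the same order. Single cells ranged widely, with Serpina1e shares from 0.069% to 100% in inflamed, 0.15% to 99.9% in dedifferentiated and 0.65% to 99.9% in homeostatic HEC. Cells with over 90% of the sum from Serpina1e numbered 10 inflamed, 13 dedifferentiated and 11 homeostatic HEC, and cells with over 90% from Serpina1b numbered 4, 5 and 4. Serpina1d was the largest paralogue in 1 inflamed HEC, with 54.4% of its sum, and Serpina1a in 1 dedifferentiated HEC, with 54.2%.

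The 5 BEC with a Serpina1 sum of 10 FPKM or more had the other composition. Serpina1b made up 73.2% to 99.8% of their sum, and Serpina1e at most 1.62%. Their Serpina1b levels were 41.97 FPKM in cell 4, 1037 in cell 8, 301.7 in cell 16, 314.5 in cell 19 and 1163 in cell 27. In these cells the HEC genes were low: Chst4 was at most 0.92 FPKM, Fut7 at most 2.54 FPKM, Ackr1 at most 6.14 FPKM and Glycam1 between 56.2 and 158.8 FPKM, within the range of all BEC. The 4 BEC above 100 FPKM also had Serpinb9 at 40.5 to 112.8 FPKM. Since these cells were singled out after their values were seen, no test was made of their composition.

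**Figure D4:**
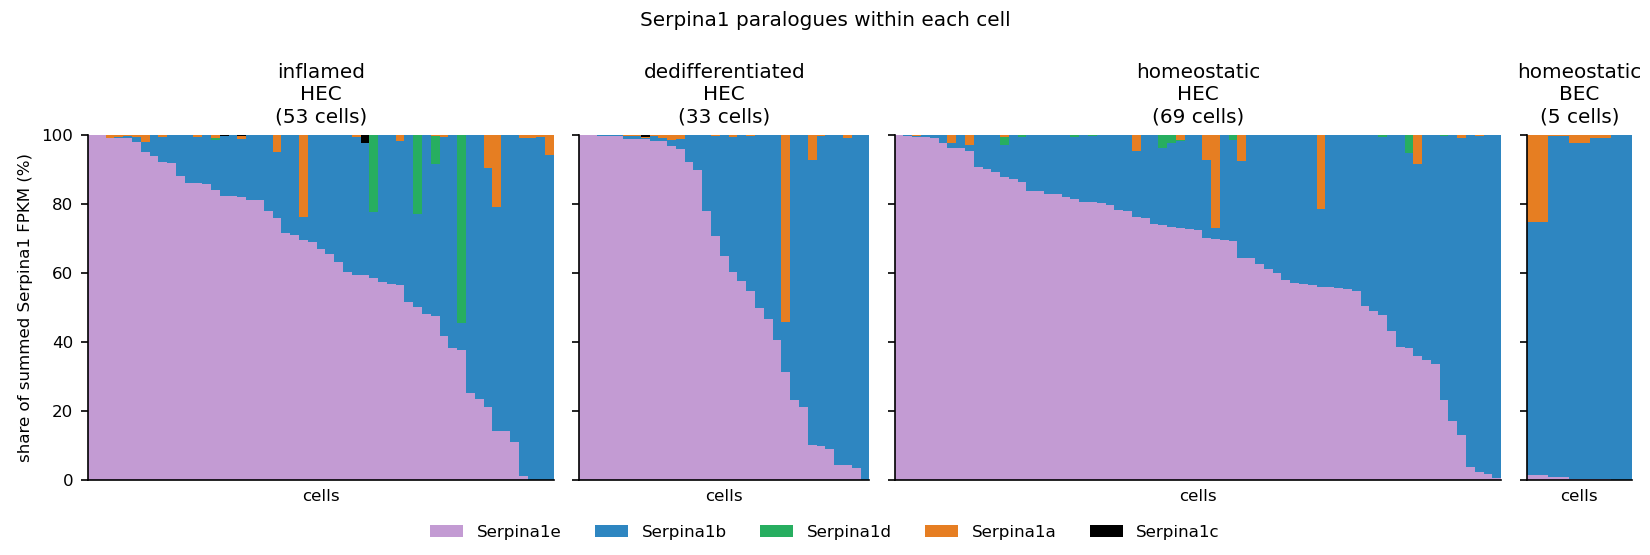
Share of the summed Serpina1 FPKM taken by each paralogue, in percent, with 1 column for each cell whose sum was 10 FPKM or more, sorted by Serpina1e share within inflamed, dedifferentiated and homeostatic HEC and BEC. Serpina1e is the largest paralogue in 39, 21 and 54 of the 53, 33 and 69 HEC and in 0 of the 5 BEC.

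Serpinb1a, the inhibitor of neutrophil serine proteases, was the member with the largest difference between inflamed and homeostatic HEC. Its median was 1898 FPKM in inflamed (78.9 to 10430), 346.1 in dedifferentiated (1.49 to 2657) and 429.0 in homeostatic HEC (0 to 3770), against 4.32 in BEC (0 to 908.9). Every inflamed HEC was above 10 FPKM and 63 of 64 were at 100 FPKM or more, compared with 58 of 79 homeostatic HEC. The spread over cells was also smaller, with means of 10.59 ± 1.43 on the log2(FPKM + 1) scale in inflamed HEC and 7.84 ± 2.90 in homeostatic HEC. Of the 64 inflamed HEC, 55 were above the homeostatic median and 9 above the highest homeostatic cell, so the groups overlapped. Among the cells at 10 FPKM or more, the median was 1898 FPKM in inflamed and 496.5 in homeostatic HEC, so the level in such cells was higher too.

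Serpinb6a, a cathepsin G inhibitor, was about equal in the HEC groups. Its medians were 216.8 FPKM in inflamed (0.93 to 2043), 278.9 in dedifferentiated (1.18 to 1766) and 246.4 in homeostatic HEC (0 to 1761), against 1.40 in BEC (0 to 1109). BEC held cells with and without it: 13 of 32 were at 10 FPKM or more, with a median of 199.2 FPKM, and 13 were below 1 FPKM. The Spearman rho of Serpinb6a with the number of genes detected was 0.02 in inflamed, 0.11 in dedifferentiated and 0.10 in homeostatic HEC and 0.60 over the 32 BEC. Of its stretches of 50 bases 13.1% are shared, mainly with the annotated gene 1110046J04Rik, whose median was between 0.425 and 1.975 FPKM in the 4 groups.

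Serpinb9, the granzyme B inhibitor, had medians of 578.5 FPKM in inflamed (1.95 to 2687), 186.5 in dedifferentiated (2.76 to 1387) and 435.4 in homeostatic HEC (0 to 3238), against 33.8 in BEC (0.15 to 1598). It was the member most often at 10 FPKM or more in BEC, although less often than in HEC. The shares at that level were 96.9% of inflamed, 86.4% of dedifferentiated and 92.4% of homeostatic HEC and 56.3% of BEC (18 of 32, interval 37.7 to 73.6). At 1 FPKM or more Serpinb1a was the more frequent in BEC, with 29 of 32 cells against 27 of 32 for Serpinb9. Markers of cytotoxic lymphocytes, a cell type known for Serpinb9, were near absent: 5 of 6 stayed below 1 FPKM in every inflamed HEC, 4 of 6 in every dedifferentiated and every homeostatic HEC and 6 of 6 in every BEC. Some HEC did carry B lymphocyte and leukocyte markers, as given above, and the source of the Serpinb9 transcripts was not tested.

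Spint2 was at a similar level in all 3 HEC groups and near absent in most BEC. Its medians were 359.5 FPKM in inflamed (0.47 to 1445), 406.2 in dedifferentiated (1.58 to 1276) and 295.4 in homeostatic HEC (0.23 to 1150), against 0.77 in BEC (0 to 460.6). It was at 10 FPKM or more in 60 of 64 inflamed, 38 of 44 dedifferentiated and 76 of 79 homeostatic HEC and in 3 of 32 BEC. Those 3 BEC had 115.1 FPKM in cell 16, 460.6 in cell 22 and 41.1 in cell 23. Cell 22 also had the highest Serpinb9 of all BEC, at 1598 FPKM, and 155.3 FPKM of Fut7, a fucosyltransferase of HEC, but only 0.72 FPKM of Chst4. Markers of epithelial cells, a cell type known for Spint2, were below 1 FPKM in every cell for 7 of 7 genes. The source of the Spint2 transcripts was not tested.

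Counting the Serpina1 sum, Serpinb1a, Serpinb6a, Serpinb9 and Spint2 as 5 inhibitors, all 5 were at 10 FPKM or more in 48 of 64 inflamed, 21 of 44 dedifferentiated and 54 of 79 homeostatic HEC and in 1 of 32 BEC. The median number per cell was 5 in inflamed, 4 in dedifferentiated and 5 in homeostatic HEC, and 1.5 in BEC. The homeostatic HEC cell 68 had none of the 5, with Spint2 at 0.68 FPKM and the other 4 listed at 0. It had 2220 genes detected, near the lowest of its group (2112), while Glycam1 was at 8691 FPKM and Ackr1, a chemokine receptor of venules, at 2516 FPKM.

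In homeostatic HEC minus BEC, 8 of the 9 members passed the filter on low values (1 FPKM or more in over 10% of the cells of either group), and Serpina1c did not. On the scale of mean log2(FPKM + 1), 6 of the 8 were higher in homeostatic HEC by 1 or more and 0 were lower, where 17% of the 9248 genes tested were higher and 4.40% were lower by as much. The choice of members used this difference, so nothing is read from that count. The differences were 7.24 for Serpina1e, 6.51 for Spint2, 5.09 for Serpina1b, 3.98 for Serpinb1a, 3.75 for Serpinb6a and 3.60 for Serpinb9, and 6.09 for the Serpina1 sum. Serpina1a (−0.00215) and Serpina1d (0.66) stayed within 1. The median of all genes was 0.28. Over the alternatives these differences ranged from 5.23 to 10.19 for Serpina1e, 4.10 to 7.80 for Spint2, 2.87 to 6.23 for Serpina1b, 2.63 to 4.59 for Serpinb1a, 1.70 to 4.53 for Serpinb6a and 1.83 to 3.92 for Serpinb9. The 2 BEC differences of the treated groups share the same BEC and were 6.23 and 4.90 for Serpina1e in inflamed and dedifferentiated HEC, 4.28 and 2.57 for Serpina1b, 6.73 and 3.44 for Serpinb1a, 3.78 and 3.93 for Serpinb6a, 3.99 and 2.66 for Serpinb9, and 6.50 and 6.40 for Spint2. In inflamed HEC minus BEC, 6 of 8 members that passed were higher and 0 lower (21.8% and 3.87% of all genes), and in dedifferentiated HEC minus BEC 6 of 7 were higher and 0 lower (11.3% and 9.45%).

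Inflamed HEC minus homeostatic HEC asks how the inhibitors stood 3 days after a skin sensitiser. Serpinb1a was higher by 2.75 and Serpina1e lower (−1.01), so 1 of 8 members that passed was higher and 1 lower, where 5.48% of the 9525 genes tested were higher and 2.60% lower by as much. Of all genes tested, 0.136% had a larger difference than Serpinb1a. The members were chosen on levels in these same cells, so nothing is read from this rank or from the counts. As the log2 ratio of arithmetic means, the difference of Serpinb1a was 1.76. The difference was −0.81 for Serpina1b and −0.71 for the Serpina1 sum, while Serpinb9 (0.39), Serpina1a (0.31), Serpina1d (0.09), Serpinb6a (0.03) and Spint2 (−0.02) lay close to the median of all genes, 0.10. Serpina1e was just past the bound of 1, and 6 of its 8 alternative values fell short of it (range −1.12 to −0.67). All differences here were smaller than the SD over cells of the more variable group, including that of Serpinb1a (2.90).

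Dedifferentiated HEC minus homeostatic HEC asks how they stood 7 days after the lymphotoxin β receptor block. Serpina1b (−2.52), Serpina1e (−2.34) and the Serpina1 sum (−1.96) were lower in dedifferentiated HEC, and over all cells no member was higher by 1 or more: 2 of 8 members that passed were lower and 0 higher, where 9.52% of the 9008 genes tested were lower and 0.833% higher by as much. Of all genes tested, 0.189% had a lower difference than Serpina1b and 0.311% than Serpina1e. Nothing is read from these ranks or from the counts here either, because of how the members were chosen. Serpinb9 (−0.95) fell just short of the bound. Serpinb1a (−0.55), Spint2 (−0.11) and Serpinb6a (0.18) were nearer to the median of all genes, −0.30, and Serpina1d (−0.65) and Serpina1a (−0.41) were low in both groups. Dedifferentiated HEC had fewer genes detected than homeostatic HEC. Matching on that number kept only 22 dedifferentiated and 26 homeostatic HEC, with 2797 to 3703 genes detected. Among these cells Serpinb6a was higher in dedifferentiated HEC by 1.004, barely past the bound. Serpinb9 was higher by 0.38 and Serpinb1a by 0.47, the other way round from all cells. Serpina1b (−2.42), Serpina1e (−1.65) and the Serpina1 sum (−1.37) were lower there too. As the log2 ratio of arithmetic means, the difference of Serpina1b was −1.38. This comparison and that of inflamed HEC share the homeostatic HEC.

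**Figure D5:**
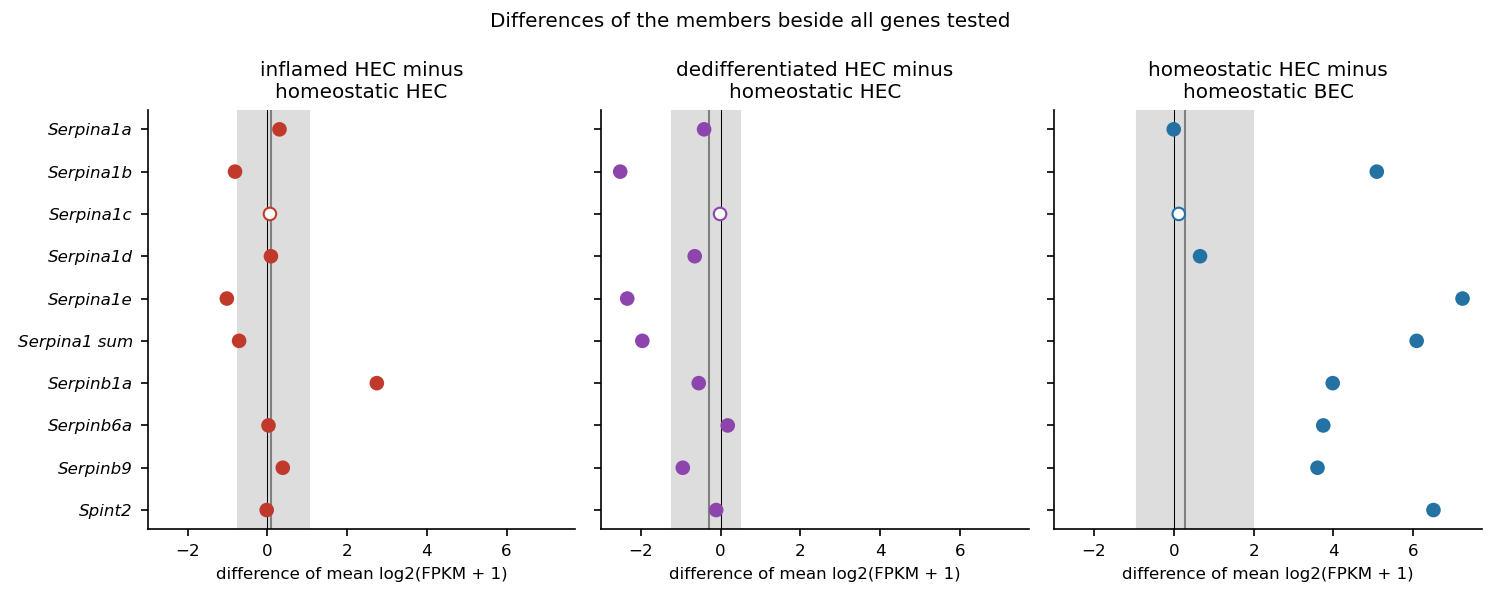
Difference of mean log2(FPKM + 1) for each member and the Serpina1 sum in inflamed HEC minus homeostatic HEC, dedifferentiated HEC minus homeostatic HEC, and homeostatic HEC minus BEC; the grey band holds the middle 90% of all genes tested, the grey line is their median, and the open circle is Serpina1c, which did not pass the filter on low values. Serpinb1a (2.75) lies right of the band in inflamed HEC, and Serpina1b (−2.52) and Serpina1e (−2.34) lie left of it in dedifferentiated HEC.

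By mean log2(FPKM + 1), inflamed HEC had the most Serpinb1a and Serpinb9, homeostatic HEC the most Serpina1b, Serpina1e and, narrowly, Spint2, and dedifferentiated HEC the most Serpinb6a. By median FPKM the order of Spint2 was dedifferentiated, inflamed, then homeostatic HEC. BEC had the least of all these genes. A step between neighbours in this order exceeded the larger of their SDs over cells only where BEC was the lower neighbour, and there for Serpina1e, the Serpina1 sum, Serpinb1a, Serpinb6a and Spint2 but not for Serpina1b or Serpinb9.

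The inhibitors varied from cell to cell largely apart from each other. Over the 10 pairs of the Serpina1 sum, Serpinb1a, Serpinb6a, Serpinb9 and Spint2, Spearman rho ran from −0.09 to 0.35 in inflamed, −0.32 to 0.43 in dedifferentiated and −0.16 to 0.42 in homeostatic HEC, with medians of 0.09, −0.07 and 0.11. The pair with the highest rho in homeostatic and dedifferentiated HEC was Serpinb1a with Serpinb9, at 0.42 and 0.43, and it had 0.30 in inflamed HEC. Serpinb6a, on chromosome 13 like both, had rho of 0.11 with Serpinb1a and −0.07 with Serpinb9 in homeostatic HEC, and −0.32 and −0.05 in dedifferentiated HEC. In inflamed HEC the highest pair was the Serpina1 sum with Spint2, at 0.35, against −0.08 in dedifferentiated and 0.13 in homeostatic HEC. The number of genes detected had a rho of −0.09 to 0.30 with these 5 levels in homeostatic HEC, and its part in these values was not tested.

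For each inhibitor the genes with the most similar pattern were ranked by Spearman rho over the 79 homeostatic HEC among 5206 genes, and rho in the other HEC groups was set beside it. For the Serpina1 sum these were Clu (0.48), Ftl1 (0.43), Ddost (0.39), Arrdc4 (0.38) and Prdx2 (0.37). Clu, a secreted chaperone, had 0.35 in inflamed and 0.13 in dedifferentiated HEC. For Serpinb1a they were Mndal, Ctdsp2, Nifk, Slco3a1 and Nostrin (0.42 to 0.45), for Serpinb6a Dram1, Odc1, Snap23, Vcpip1 and Msmo1 (0.33 to 0.40), for Serpinb9 Pglyrp1, Pf4, Rab1, Psmb1 and Psmd5 (0.42 to 0.53), and for Spint2 C1s1, Ggt5, Man1a, Fkbp2 and Tmem64 (0.41 to 0.46). Pglyrp1, a peptidoglycan-binding protein of innate immunity, had the highest rho of all with Serpinb9 (0.53) but 0.12 in inflamed and 0.29 in dedifferentiated HEC. Mndal, the first for Serpinb1a (0.45), had −0.13 in inflamed and 0.03 in dedifferentiated HEC. The highest values among 5206 genes are high by selection. All 25 genes had a lower rho in inflamed and in dedifferentiated HEC than in homeostatic HEC, and for the Serpina1 sum the 5 values were 0.17 to 0.35 in inflamed and 0.01 to 0.17 in dedifferentiated HEC.

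Few other clade A serpins were present. Of 19 found in the table, 3 passed the filter in inflamed HEC minus homeostatic HEC, and all 3 were higher by 1 or more. The counts of this and the following lists stand beside the shares of all genes given above: 5.48% higher and 2.60% lower in inflamed HEC minus homeostatic HEC, 0.833% and 9.52% in dedifferentiated HEC minus homeostatic HEC, and 17% and 4.40% in homeostatic HEC minus BEC. Some genes passed the filter only through the group where they were high. Serpina3n, for example, was at 1 FPKM or more in 19 inflamed and 2 homeostatic HEC. No direction of a list as a whole is read from these counts. Serpina3g, an intracellular serpin of activated lymphoid cells, averaged 5.78 ± 3.09 on the log2(FPKM + 1) scale in inflamed HEC and 3.92 ± 3.26 in homeostatic HEC, a difference of 1.85. Serpina3n, an acute-phase serpin, was at 10 FPKM or more in 16 of 64 inflamed HEC and in 0 of 79 homeostatic HEC, a difference of 1.58, and the difference of Serpina3f was 1.02. Dedifferentiated HEC minus homeostatic HEC gave −0.92 for Serpina3g, −0.76 for Serpina3f and 0.67 for Serpina3n, so 0 of 3 were past 1 in either direction. In homeostatic HEC minus BEC 2 of 2 that passed were higher, Serpina3g by 2.82 and Serpina3f by 1.71. Serpina3f passed only through the homeostatic HEC, as 3 BEC were at 1 FPKM or more. The other 16 clade A serpins, listed at 0 in nearly all cells, include the liver serpins Serpina6 and Serpina10.

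Of the 24 other clade B serpins, 4 passed in each of the 3 main comparisons. Serpinb6b, a close relative of Serpinb6a, was higher by 2.61 in homeostatic HEC minus BEC and lower (−1.70) in dedifferentiated HEC minus homeostatic HEC. Serpinb8, which in humans inhibits furin, was higher by 1.52 in homeostatic HEC minus BEC. That makes 2 of 4 higher and 0 lower in homeostatic HEC minus BEC, 0 higher and 1 lower in dedifferentiated HEC minus homeostatic HEC, and 0 in either direction in inflamed HEC minus homeostatic HEC. Serpinb1b and Serpinb1c, which share stretches with Serpinb1a, stayed at medians of 0 to 0.365 FPKM.

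Among the 11 serpins of the remaining clades, Serpinh1, the collagen chaperone HSP47, averaged 4.23 ± 2.11 in inflamed HEC and 2.32 ± 2.23 in homeostatic HEC on the log2(FPKM + 1) scale, higher by 1.90. It was lower in homeostatic HEC minus BEC (−1.13), as was Serpine2 (−2.12), an inhibitor of thrombin and plasminogen activators. These were 2 of the 2 that passed there, and 1 of 3 was higher in inflamed HEC. In dedifferentiated HEC minus homeostatic HEC 0 of 2 were past 1.

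Other inhibitors showed their own patterns. Of 20 in the list, 11 passed. In homeostatic HEC minus BEC 5 were higher, namely Timp2 (4.55), the Kunitz inhibitors Tfpi (4.44) and Tfpi2 (1.52), the intracellular cysteine protease inhibitor Cstb (3.42) and Timp1 (1.35), and 1 was lower, Timp3 (−3.51). Tfpi, which blocks tissue factor, had medians of 84.2 FPKM in inflamed, 74.1 in dedifferentiated and 187.7 in homeostatic HEC, against 0.695 in BEC. Timp1 was higher (1.55) and Timp2 (−1.54) and Timp3 (−1.49) lower in inflamed HEC minus homeostatic HEC, which makes 1 higher and 2 lower. App, which has a Kunitz domain in some isoforms, was the 1 gene lower in dedifferentiated HEC than in homeostatic HEC (−1.02), and 0 were higher. Spint1, the relative of Spint2 also called HAI-1, was listed at 0 in every cell.

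Most of the listed target proteases were rare in the same cells. Of 25 in the list, 3 passed in inflamed HEC minus homeostatic HEC and 2 in each of the other main comparisons, and 0 were past 1 in any. Plat and F2 passed in each, and Plau in inflamed HEC minus homeostatic HEC only. Plat was at 10 FPKM or more in 7 inflamed, 2 dedifferentiated and 12 homeostatic HEC and 1 BEC. F2 reached that level in 4 homeostatic HEC, and Hpn in 3 inflamed and 2 homeostatic HEC. Elane, Prtn3 and Gzmb, which encode neutrophil elastase, proteinase 3 and granzyme B, were listed at 0 in all 219 cells, and Ctsg, cathepsin G, was at 10 FPKM or more in 4 homeostatic HEC alone. Matriptase (St14) reached 10 FPKM in 1 dedifferentiated HEC, and prostasin (Prss8) in none. Hgfac, the hepatocyte growth factor activator, was at 10 FPKM or more in 1 homeostatic HEC and Hgf was listed at 0 throughout. Its receptor Met was at 10 FPKM or more in 19 of 64 inflamed, 6 of 44 dedifferentiated and 26 of 79 homeostatic HEC and in 4 of 32 BEC. Met was the 1 of 4 genes in this pathway list that passed, higher by 1.51 in homeostatic HEC minus BEC, lower in dedifferentiated HEC minus homeostatic HEC (−1.27), and −0.51 in inflamed HEC minus homeostatic HEC.

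Most of the listed hepatocyte transcripts were near absent in HEC. Of 8 hepatocyte markers, 6 stayed below 1 FPKM in every inflamed, every dedifferentiated and every homeostatic HEC, among them Alb, Ahsg and Apoa1, which were listed at 0 in all cells. The others were Cyp2e1 and Apoa2. Cyp2e1 was at 1 FPKM or more in 49 inflamed, 18 dedifferentiated and 50 homeostatic HEC and 25 BEC. It reached 10 FPKM in 7, 1, 6 and 2 cells in that order. Apoa2 reached 10 FPKM in 3 inflamed, 1 dedifferentiated and 1 homeostatic HEC and in no BEC. The summed marker level had medians of 1.965 FPKM in inflamed (0 to 119.0), 0.75 in dedifferentiated (0 to 103.6) and 1.65 in homeostatic HEC (0 to 35.8), against 1.87 in BEC (0.36 to 25.8). Neutrophil markers had a median sum of 0 in all 4 groups. The source of the Serpina1 transcripts was not tested.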

How the data were processed

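The series holds 1 table, in which the authors deposited FPKM values for 24049 gene symbols in 220 single cells. The submitters' processing notes name CASAVA 1.8, RSEM 1.2.18 and mm10. What each was used for, the annotation and the handling of multi-mapping reads, doublets and low-quality cells are not stated there. In the table, 7527 symbols had no value above 0. Fragment counts per cell were not recovered, so depth is described by the number of genes at an FPKM of 1 or more, and intervals on shares (exact Clopper-Pearson, 95%) cover counting over cells only.

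Cells were grouped by their labels, and 2 near-identical inflamed cells (r above 0.9) were averaged as FPKM. Deposited FPKM were turned into log2(FPKM + 1), and its mean and SD in each group and the difference of means were computed per gene, a scale that understates the change of low genes. With 1 sample of cells per group there was no test, p-value or standard error. Genes at 1 FPKM or more in over 10% of cells of either group were compared, and a difference of 1 or more was counted. The members and the gene and marker lists were chosen with earlier results of these data known. Named genes were the 9 members, list genes past 1 in a main comparison and at 1 FPKM or more in 25% of cells of either group (at most 6 a list, by size), genes at or near 0 where the text says so, and the 5 genes of highest Spearman rho for each inhibitor. Of the symbols in the lists, 5 were not matched to the table.

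Sequences came from GENCODE release M21 (GRCm38) transcripts and the RefSeq promoter table (GRCm38.p6). Shared stretches were counted against all annotated transcripts, and coding sequences were aligned with Biopython 1.88. The group difference was tested on simulated cells with less spread than most members had, and the counting of shared stretches on made-up sequences. Shares, compositions and correlations were not tested in that way. The computations used Python 3.11.15, numpy 2.4.6, pandas 2.3.3 and scipy 1.17.1.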

Additional observations from a re-analysis of the deposited data

How the results depend on the processing

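Of 364 alternative values of the 50 member differences, 356 moved by less than the SD over cells, 8 moved by more, and 0 of those past 1 changed sign. That SD is a loose bound. In homeostatic HEC minus BEC, moves from 7.24 to 10.19 for Serpina1e and from 5.09 to 2.87 for Serpina1b count as within it. The shares of cells depended more on the setting: 49 of their alternative values counted as moved and 31 as the same. Serpina1e in BEC, for example, was at 1 FPKM or more in 46.9% of cells and at 10 FPKM or more in 0%. The exact intervals do not cover this. The number of members lower by 1 or more in inflamed HEC minus homeostatic HEC was 1 as reported (Serpina1e), and 0 with a pseudocount of 0.1 or of 10, with the log2 ratio of arithmetic means, with each cell rescaled to a sum of 1000000, in cells matched on genes detected, with all 220 cells, and with the Serpina1 paralogues summed. The ratio of arithmetic means also gave 2 members higher in place of 1 in that comparison (Serpina1d joined Serpinb1a), 4 lower in place of 2 in dedifferentiated HEC minus homeostatic HEC, and 1 lower in place of 0 in dedifferentiated HEC minus BEC. A few cells with high values weigh most in that ratio. In dedifferentiated HEC minus homeostatic HEC, matching on genes detected gave 1 member higher in place of 0 (Serpinb6a, 1.004), and summing the paralogues gave 1 lower in place of 2, since they then count as 1 gene. Spint2 in homeostatic HEC minus BEC was 6.51 as reported and ranged from 4.10 to 7.80. Without the filter on low values the share of all genes higher by 1 or more in homeostatic HEC minus BEC was 6.54% in place of 17%, because more genes near 0 were counted. No paired analysis was possible because the numbers in the titles only name cells. Depth per cell, the unknown number of animals and the sharing of fragments among Serpina1 paralogues limit these values.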

Other observations

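The averaged inflamed cells 43 and 60 had close values for every member before averaging. Serpina1e was at 2290 and 2397 FPKM, Serpinb1a at 1868 and 1863 FPKM, Serpinb9 at 791.1 and 794.3 FPKM and Spint2 at 422.1 and 454.0 FPKM. Serpina1a was at 159.9 and 152.4 FPKM in this pair, the highest values of this paralogue in inflamed HEC, while Serpina1c and Serpina1d were listed at 0 in both.

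Serpina1d, listed at 0 in most cells, was at 10 FPKM or more in 4 inflamed HEC, with a median of 413.3 FPKM in those cells, in 7 homeostatic HEC, with a median of 71.2 FPKM, and in 0 dedifferentiated HEC and 0 BEC. These cells also had fragments of the more abundant paralogues, and how far shared fragments account for their Serpina1d was not tested.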
